A study of Homo sapiens with 24 samples.

Results

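Gene expression was compared between 2 unrelated human cell lines that both still carried mitochondrial DNA (mtDNA): the osteosarcoma line 143B in its rho+ form, and HEK293, an embryonic kidney line, before induction of the transgene it carries. The members are the 3 arrays titled as 143B rho+ and the 3 titled as day 0 of DN-POLG, 6 of the 24 arrays of the series. The series as a whole followed loss of mtDNA, by doxycycline-induced expression of a dominant-negative mtDNA polymerase (DN-POLG) in HEK293 cells and by ethidium bromide in 143B cells. In this comparison neither manipulation had taken effect, so it gives the starting difference of the lines.

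The DN-POLG day 0 cultures were HEK293 cells (HEK293T in the study's methods) with the Tet-on DN-POLG transgene and without doxycycline. The 143B rho+ cultures were the untreated parental cells of the rho0 derivative. Per the labels both lines were kept in high-glucose medium to which pyruvate and uridine were added. Line and transgene cannot be told apart. A second comparison, 143B rho0 against NDI1/AOX day 0, shared no array with the first and was used to see which differences recurred. Its 143B cells had lost mtDNA after ethidium bromide, and its HEK293 cells carried uninduced DN-POLG plus the yeast NADH dehydrogenase NDI1 and an alternative oxidase (AOX), which bypass complexes I, III and IV. Each group is 3 separate cultures of 1 line, so p-values measure the spread between cultures and not between independently derived lines.

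Osteosarcoma cells derive from the bone-forming mesenchymal lineage and typically secrete collagen-rich matrix and attach to it through integrins. HEK293 was made from embryonic kidney with adenovirus DNA and is known for an expression profile that mixes kidney, epithelial and neuronal genes. The respiratory chain is built from subunits of both genomes: mtDNA supplies a small set of core subunits, and the nucleus supplies the rest, together with the mitochondrial ribosome and the factors that copy and transcribe mtDNA.

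Each value below is a MAS5 signal, the brightness of a probe set on the Affymetrix HG-U133 Plus 2.0 array on a linear scale, and each difference is 143B minus HEK293 on the log2 scale. Over the tested probe sets the arrays of a group correlated at 0.913 to 0.958 on average with their own group and at 0.460 to 0.502 with the other line. Of 11492 genes above the signal filter (a mean log2 signal of 6.34 over the 6 arrays, which is a signal of 80.9), 3064 (26.7%) were higher and 4050 (35.2%) were lower in 143B rho+ at an adjusted p under 0.05 (limma). A list of genes has to be read against these shares, since a majority of genes differed. In the second comparison 2958 genes (25.7%) were higher and 4816 (41.9%) lower. Both comparisons called 2279 genes higher and 3483 lower, and 91 genes were called in opposite directions.

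The split into higher and lower depends on how the arrays are scaled. As deposited, 43.1% of the calls were higher and the median difference of all genes was -0.20. With the arrays set to one median the share was 28.2% and the median -0.71, because the median signal was 88.3 to 110.5 on the 143B rho+ arrays and 65.6 to 70.9 on those of DN-POLG day 0. Differences are therefore given beside the median of all genes, and a gene list whose sign turned under that scaling is named as such.

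The arrays of the lines also differed in control probe sets. MAS5 arrays carry probe sets at both ends of a few transcripts, and the ratio of the 3' to the 5' signal rises when the copied RNA does not reach the 5' end. For ACTB this ratio was 10.4, 16.1 and 17.1 on the 143B rho+ arrays and 1.75, 1.19 and 1.08 on those of DN-POLG day 0. For GAPDH it was 1.75, 2.20 and 2.91 against 1.06, 0.930 and 0.959. In neither did the lines overlap. Ratios of the bacterial RNAs that are added to each sample also stood apart for Dap (5.94 to 6.85 against 2.16 to 3.75) and Lys (3.72 to 8.62 against 2.06 to 2.88), while those for Phe and Thr overlapped. Over these 6 ratios the exact permutation test (two-sided) gave p = 0.1 for ACTB, GAPDH, Dap and Lys, the smallest p that 3 against 3 cultures allow (adjusted p = 0.15). The arrays of the second comparison were split in the same way. Their ACTB ratio was 8.12, 6.55 and 5.53 in 143B rho0 and 1.15, 1.14 and 1.18 in NDI1/AOX day 0. Their GAPDH ratio was 2.40, 1.73 and 1.48 against 0.977, 0.936 and 0.943. A difference that recurred there is thus not free of this split. In a model of all 24 arrays with the ACTB ratio as a covariate, 2132 genes were higher and 3238 lower in 143B rho+. That model includes 1 HEK293 array, replicate 1 of DN-POLG day 6, whose ratios were 8.92 for ACTB and 1.97 for GAPDH. Calls lost in that model are named beside the genes below.

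**Figure D1:**
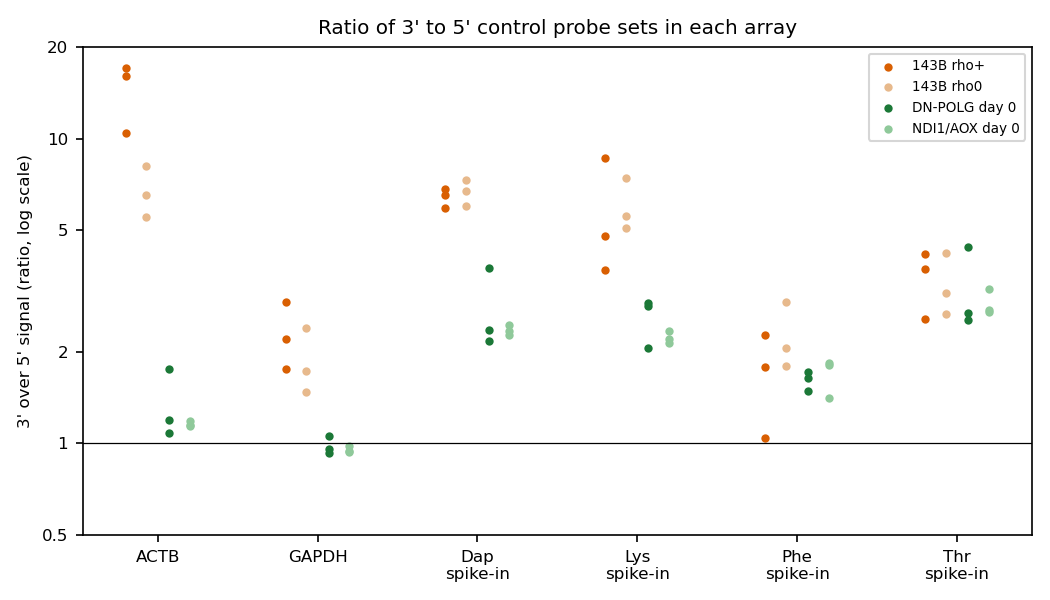
Ratio of the 3' to the 5' probe set (log axis) of ACTB, GAPDH and 4 bacterial spike-in RNAs in each array of 143B rho+, 143B rho0, DN-POLG day 0 and NDI1/AOX day 0; each point is 1 array. ACTB ratios of 143B rho+ lie between 10.4 and 17.1 and those of DN-POLG day 0 between 1.08 and 1.75, and the Phe and Thr ratios overlap.

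The first genes to consider are those that check the labels. Where a gene below passed and all 6 signals are printed, the groups did not overlap, with the exception of COL1A1. TK1 encodes cytosolic thymidine kinase, the enzyme whose deficiency defines the 143B line. Its signal was 110.1, 62.3 and 111 in 143B rho+ and 2092, 4119 and 2434 in DN-POLG day 0, a difference of -4.92 (SE 0.36, adjusted p = 2.15e-05 from limma). The groups did not overlap, and the gene was low in 143B rho+. POLG, the catalytic subunit of the mtDNA polymerase, was at 1380.1, 1398 and 931 in 143B rho+ and 1179.6, 1295 and 643 in DN-POLG day 0, a difference of 0.29 that did not pass (adjusted p = 0.486) and was -0.21 with the arrays set to one median. Its probe sets do not separate the transgene from the endogenous gene here.

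CTHRC1, a secreted collagen triple helix repeat protein, had the largest positive difference among genes that met the rule for naming: 15304, 15773 and 17415 in 143B rho+ against 12.6, 1.18 and 2.51 in DN-POLG day 0, 12.24 on the log2 scale (SE 0.73, adjusted p = 1.07e-05 from limma). The low group lay far below the filter, so the size of this difference, as of the others in this paragraph, rests on signals near background and is uncertain. CLDN11, a tight junction claudin, came next at 11.54, followed by RIN2, a Rab5 effector, at 10.80, IGFBP3, a carrier of insulin-like growth factors, at 10.43 and S100A6, a calcium-binding protein, at 10.35. TM4SF1, a tetraspanin-like membrane protein (9.99), AEBP1, a matrix-associated carboxypeptidase-like protein (9.70), TBX15, a T-box factor of limb and skeletal development (9.51), MMP1, interstitial collagenase (9.37), STC1, a secreted stanniocalcin (9.23), COL6A3, a collagen VI chain (9.19), and C2CD2 (9.02) completed the 12.

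At the other end stood IRS4, an insulin receptor substrate long known from HEK293 cells, at 11.1, 1.05 and 10.6 in 143B rho+ and 9797, 1333 and 32025 in DN-POLG day 0. The difference was -10.55 (SE 1.22, adjusted p = 1.62e-04), and the 3 HEK293 cultures themselves ranged from 1333 to 32025. The genes that followed included KRT19, a keratin of simple epithelia (-9.63), NEFL, the neurofilament light chain (-9.51), BEX1 (-8.82) and BEX4 (-7.77), brain-expressed X-linked genes, ELAVL2, a neuronal RNA-binding protein (-8.64), HES4, a Notch-responsive repressor (-8.19), and NMU, the peptide neuromedin U (-7.82). UBE2S, a ubiquitin-conjugating enzyme of the anaphase-promoting complex (-8.23), CDKN2A (-8.18), the monocarboxylate transporter-like gene SLC16A14 (-8.14) and MAP7D2, a microtubule-binding protein (-8.00), completed this set of 12.

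CDKN2A, which encodes the cell cycle inhibitors p16 and p14ARF, had signals of 42.5, 25.5 and 21.3 in 143B rho+ and 6525, 11848 and 7246 in DN-POLG day 0 (adjusted p = 4.59e-06 from limma). Its neighbour on chromosome 9, MTAP, the methionine salvage enzyme that recycles methylthioadenosine, was at 21.5, 25.8 and 61.1 against 576, 503 and 577, a difference of -4.09 (adjusted p = 7.05e-05, but 0.175 with the ACTB ratio as a covariate). CDKN2B, the adjoining inhibitor gene on the other side, lay under the signal filter and was not tested, with signals of 3.83, 0.374 and 4.31 in 143B rho+ and 529.9, 835 and 701 in DN-POLG day 0. These 3 adjacent genes lay under the filter signal in each 143B rho+ array and above it in each DN-POLG day 0 array. Genes farther along the chromosome, chosen after their values were seen, were mixed. ELAVL2, named above, was lower. KLHL9, an adaptor of a ubiquitin ligase, was at 1749, 2136 and 1711 in 143B rho+ and 2674, 1896 and 2599 in DN-POLG day 0 (-0.35, adjusted p = 0.285). TUSC1, a gene beyond ELAVL2, was higher in 143B rho+ at 7.34 (adjusted p = 3.76e-06). No DNA copy number was measured in these samples.

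Mesenchymal markers were more often higher than lower in 143B rho+. Of 22 tested mesenchymal and osteosarcoma markers, 15 (68.2%) were higher in 143B rho+ and 1 was lower, with a median difference of 2.08. With the ACTB ratio as a covariate 11 were higher and the median was 1.03. SPARC, osteonectin of bone matrix, had signals of 7516, 5679 and 6599 in 143B rho+ and 56.5, 10.1 and 79.2 in DN-POLG day 0, a difference of 7.53 (SE 0.68, adjusted p = 5.09e-05). CDH11, osteoblast cadherin, differed by 8.01, and NT5E, the ecto-nucleotidase CD73 of mesenchymal cells, by 7.75. RUNX2, the master regulator of osteoblasts, was at 811, 842 and 1006 against 378, 179 and 299.9 (1.69, adjusted p = 0.00220), so it was present in both lines and higher in 143B. CD44, the hyaluronan receptor, was higher by 3.83 (adjusted p = 0.00284).

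Other markers of this lineage did not follow. VIM, vimentin, was abundant in both lines, at 16472, 16615 and 12993 in 143B rho+ and 22517, 41138 and 20108 in DN-POLG day 0 (-0.80, adjusted p = 0.0645). The 1 marker called lower was S100A4, a relative of S100A6 and also known as fibroblast-specific protein, at -2.06, and it was called higher in the second comparison, at 0.79. COL1A1, the chain of bone collagen, was at 1144, 278 and 2337 against 428, 90.5 and 248. Its groups overlapped, its adjusted p was 0.0487, and probe sets of the gene were called in both directions. COL1A2, its partner chain, ALPL, the alkaline phosphatase of osteoblasts, and THY1 were under the signal filter, COL1A2 with signals of 20.4, 4.96 and 14.6 in 143B rho+. Of the markers that define the osteosarcoma label, SPARC, RUNX2 and CD44 were thus high in 143B rho+, while COL1A2, ALPL and THY1 were under the filter.

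Of 12 tested kidney developmental regulators, 3 were lower and 2 higher in 143B rho+, 25.0% and 16.7%, both under the shares of all genes, with a median of -0.34. With the arrays set to one median 5 were lower and 1 higher, and in the methods' ANOVA 4 and 0. In the second comparison 6 were lower and 1 higher, with a median of -0.85. GATA3, a factor of the nephric duct, was at 103, 51.0 and 86.0 in 143B rho+ and 1432, 1535 and 1166 in DN-POLG day 0 (-4.16, adjusted p = 2.68e-05). PAX8 differed by -2.32, and EYA1 by -1.73 (adjusted p = 0.00197, but 0.286 with the ACTB ratio as a covariate). PAX2, a regulator of the early kidney and a marker of HEK293, was low in both lines, 16.7, 100.3 and 94.6 against 121, 98.5 and 193, and did not pass (-1.29, adjusted p = 0.120). SALL1, a factor of nephron progenitors, was at 649, 520 and 934 against 700.5, 191 and 631, and LHX1 was under the filter. The 2 that were higher were BMP7, a growth factor of the developing kidney (0.85), and WT1. WT1, a factor of the kidney mesenchyme, was higher in the osteosarcoma line, 1668, 1735 and 1446 against 656, 293 and 929 (1.52, adjusted p = 0.0123, lost in the methods' ANOVA). Of 12 markers of mature kidney cells on the array 1 was tested, PODXL of podocytes, which was higher in 143B by 1.30, a call lost with the arrays set to one median (adjusted p = 0.0567). With the filter on the higher of the group means 3 were tested, and the other 2 were lower in 143B rho+. The summed signal of those 12 genes was 2373 to 3416 in 143B rho+ and 1088 to 1787 in DN-POLG day 0. Their median gene signal was 28.0 and 26.7, and the mean signal lay over the filter for 1 of them in 143B rho+ and 3 in DN-POLG day 0. Of 9 genes of blood and endothelial cells, PECAM1 alone was tested (2.64, lost with the ACTB ratio as a covariate at adjusted p = 0.750). The summed signal of those 9 genes was 403 to 760 in 143B rho+ and 249 to 301 in DN-POLG day 0.

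Among 13 neuronal and neuroendocrine genes, 7 (53.8%) were lower and 2 higher in 143B rho+. Without probe sets ending in _s_at or _x_at 3 of 9 were lower and 3 higher, and with the mean of probe sets 7 were lower and 4 higher. NEFL had signals of 4.70, 7.88 and 9.65 in 143B rho+ and 5515, 4260.2 and 5940.1 in DN-POLG day 0. INA, the alpha-internexin neurofilament, differed by -5.00, whereas L1CAM, a neural adhesion molecule, was higher by 1.63 and CHGB, a granin of secretory vesicles, by 3.61 (adjusted p = 0.0123, but 0.0741 with the ACTB ratio as a covariate and 0.0974 in the methods' ANOVA). NEFM, the neurofilament medium chain, was under the filter, so the neurofilament pattern of HEK293 rested on NEFL and INA in these arrays. Of 10 epithelial markers 5 were lower and 2 higher. KRT19 was at 4.95, 2.19 and 4.08 in 143B rho+ and 2675, 3301 and 2515 in DN-POLG day 0, KRT8, its pairing partner among simple keratins, differed by -3.52, CLDN1 by -5.36, and the desmosomal plakophilin PKP2 by -2.68. The 2 that were higher were the desmosomal cadherin DSG2 (1.38) and CDH2. CDH2, N-cadherin, which HEK293 cells are known to express, was at 7022, 7726 and 8735 against 2329.6, 1805 and 3223 (1.71, adjusted p = 0.00120, lost with the ACTB ratio as a covariate).

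**Figure D2:**
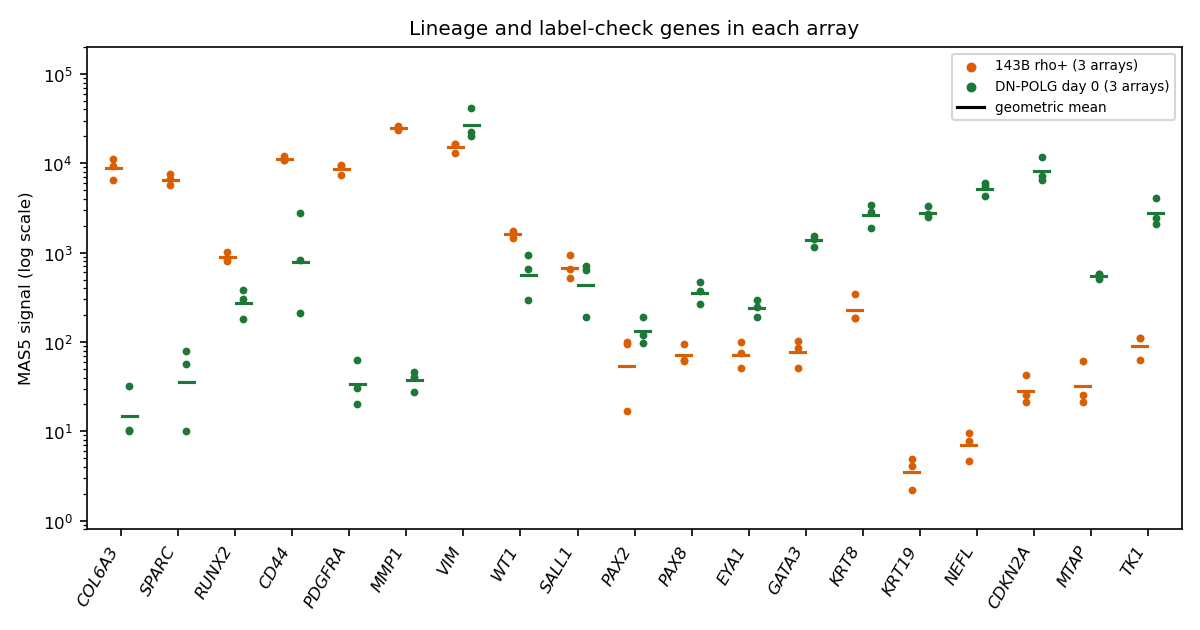
MAS5 signal (log axis) of 19 lineage and label-check genes in each of the 3 arrays of 143B rho+ and of DN-POLG day 0; points are arrays and bars are geometric means. Mesenchymal genes from COL6A3 to MMP1 lie higher in 143B, VIM, SALL1 and PAX2 did not pass, and GATA3, KRT8, KRT19, NEFL, CDKN2A, MTAP and TK1 lie higher in DN-POLG day 0.

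HOX genes, whose clusters keep a record of position along the body axis, differed in both directions. Of 23 tested, 9 (39.1%) were higher and 8 (34.8%) lower, against 26.7% and 35.2% of all genes, and 4 were higher with the ACTB ratio as a covariate. HOXB8 was at 1555, 1591 and 859 in 143B rho+ and 55.7, 41.0 and 95.6 in DN-POLG day 0 (4.42, adjusted p = 4.77e-05). HOXD4 and HOXA2 were also higher, by 3.56 and 3.39. HOXD10, from the same cluster as HOXD4, was lower, at 398, 320.4 and 458 against 4235, 4447 and 4038 (-3.45). Among 8 oncofetal genes, which are active in the embryo and again in tumours, LIN28B, a repressor of let-7 maturation, was lower at -2.51, while TRIM71 (2.11), HMGA1 (1.82) and IGF2BP3 (1.54, lost in the methods' ANOVA) were higher. HMGA1 turned to -0.66 with the ACTB ratio as a covariate, where 2 of the 8 were higher and 3 lower. With the mean of probe sets 6 were higher and 1 lower. PRAME was the cancer-testis antigen, of 15 on the array, that was tested, and it was higher by 1.37.

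Genes of the extracellular matrix, and of the receptors that hold cells to it, were higher in 143B rho+ nearly throughout their lists. Of 36 tested collagens, laminins and other matrix genes, 33 (91.7%) were higher and 1 was lower, with a median of 2.81 against -0.20 for all genes. The median was 2.31 with the arrays set to one median and 2.72 with the ACTB ratio as a covariate, where 23 genes were higher. MMP1, the collagenase that cleaves fibrillar collagen, was at 23347, 26180.3 and 24839 in 143B rho+ and 46.2, 40.9 and 27.5 in DN-POLG day 0 (9.37, SE 0.28, adjusted p = 3.76e-06 from limma). THBS2, a matricellular thrombospondin, had signals of 5323, 6373 and 5810.3 against 5.26, 36.9 and 10.6 (8.84). LAMB3, a chain of the laminin of epithelial basement membranes, differed by 6.53. THBS1 differed by 6.15, with a wide spread in 143B (4463, 693 and 2906), and was lost with the ACTB ratio as a covariate (adjusted p = 0.0748). The gene called lower was TIMP1, an inhibitor of matrix metalloproteinases, at -0.83. In the second comparison 31 of the 36 were higher and 0 lower, with a median of 2.90.

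Of 23 tested integrins and focal adhesion genes, 17 (73.9%) were higher and 1, CAV2, was lower (-2.05), with a median of 2.39. The collagen-binding integrins led: ITGA2 was at 7205, 10229 and 11595 in 143B rho+ and 257, 108 and 469 in DN-POLG day 0 (5.33, adjusted p = 6.08e-05), and ITGA1 was higher by 6.12. The vitronectin receptor chain ITGB3 was higher by 4.13 (lost with the ACTB ratio as a covariate, adjusted p = 0.350). TLN1, talin, which links integrins to actin, was higher by 4.40, but its remaining probe set without those ending in _s_at or _x_at gave -0.21. Actin genes themselves were split, with 9 of 20 higher and 7 lower and a median of 0.27 that turned to -0.23 with the arrays set to one median. TPM2, a tropomyosin, was at 8444, 8856 and 7682 against 109, 58.8 and 23.9 (7.28), MYLK, myosin light chain kinase, was higher by 3.17, and TAGLN2, a transgelin, was lower at -4.47. LMNA, lamin A/C, was called lower at -2.85 by its brightest probe set and higher at 3.02 without probe sets ending in _s_at or _x_at, so its direction is not settled.

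**Figure D3:**
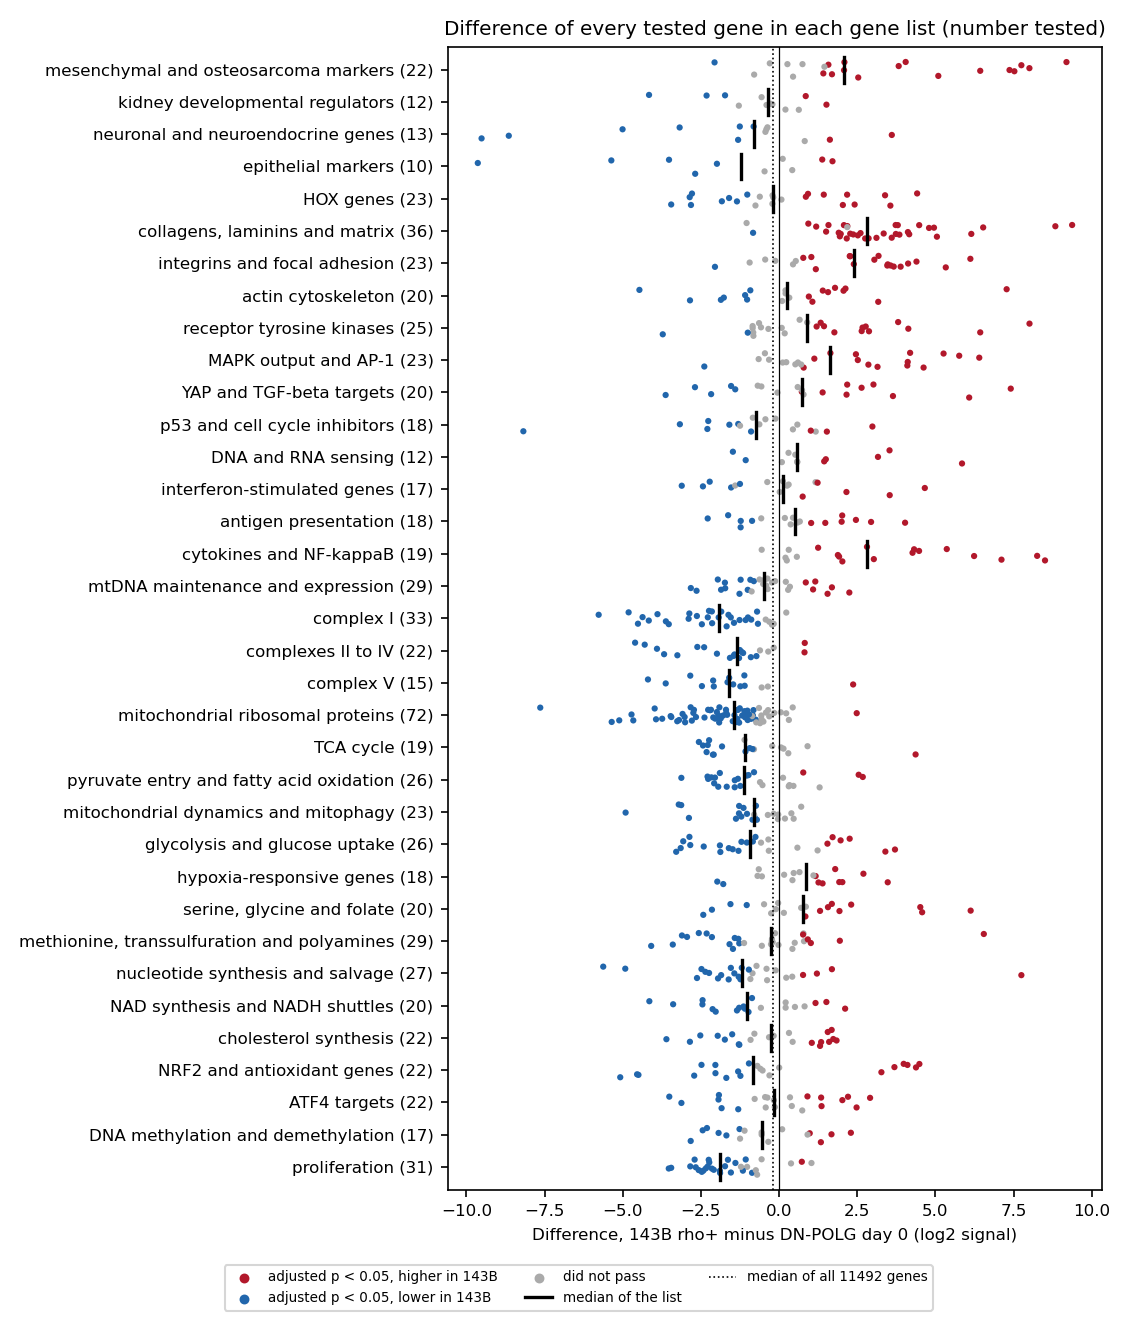
Difference between 143B rho+ and DN-POLG day 0 (x axis, log2 signal) of each tested gene in the lists with 10 or more tested genes; points are genes, coloured by whether they passed the adjusted p and in which direction, and black bars are list medians. Matrix genes have a median of 2.81 and complex I genes one of -1.93, against -0.20 for all genes (dotted line), and the actin and interferon-stimulated medians turn below 0 with the arrays set to one median.

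Receptor tyrosine kinases and genes of MAPK output were more often higher than lower in 143B rho+. Of 25 receptor tyrosine kinases, 12 (48.0%) were higher and 2 lower, although 8 were lower with the arrays set to one median and 4 without replicate 2 of 143B rho+. After quantile normalization 6 were lower. The median was 0.90, and 0.12 with the ACTB ratio as a covariate, where 9 were higher and 5 lower. PDGFRA, a platelet-derived growth factor receptor of mesenchymal cells, was at 7311, 9548 and 9303 in 143B rho+ and 20.1, 30.3 and 62.2 in DN-POLG day 0 (8.01, adjusted p = 6.34e-06). DDR2, a collagen-activated receptor, was higher by 6.43, FLT1, a VEGF receptor, by 4.13 (lost without probe sets ending in _s_at or _x_at, adjusted p = 0.103), and EGFR by 3.81. The 2 that were lower were the fibroblast growth factor receptor FGFR1 and the ephrin receptor EPHA3 (-3.72). Of 23 genes of MAPK output and AP-1, 14 (60.9%) were higher and 1 lower, with a median of 1.64. The gene that was lower was HBEGF, a ligand of EGFR (-2.39). FOSL1, the AP-1 subunit Fra-1, was at 4789, 5071 and 4657 in 143B rho+ and 156, 244 and 52.6 in DN-POLG day 0 (5.26), and the feedback inhibitor SPRY4 was higher by 5.76. PHLDA1 and IER3, early-response genes, were higher by 6.40 and 4.62. Of 20 YAP and TGF-beta targets, 9 were higher and 5 lower, with a median of 0.73, but 7 were higher and 7 lower with the arrays set to one median, where the median was 0.23. TGFBI, a secreted target of TGF-beta, differed by 7.41, the activin subunit INHBA by 6.08 and the receptor TGFBR2 by 3.64, while ID2 was lower at -3.63.

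Inflammatory mediators were higher in 143B rho+, and here the comparison of the derivatives gave another picture. Of 19 tested cytokines and NF-kappaB genes, 14 (73.7%) were higher and 0 lower in the first comparison, with a median of 2.81. ICAM1, an adhesion receptor for leukocytes, was at 6956, 8339 and 4976 in 143B rho+ and 10.7, 11.6 and 48.2 in DN-POLG day 0 (8.51, adjusted p = 1.45e-05). PTGS2, the inducible cyclooxygenase, was at 4003, 3739 and 7515 against 21.1, 4.23 and 44.2 (8.25). CCL2, a monocyte chemokine, differed by 7.11, although its 143B signals ran from 547 to 4832, and TNFAIP2 by 6.24. In the second comparison 7 of the 19 were higher and 4 lower, with a median of -0.40. The difference between the comparisons passed an interaction test for ICAM1, at 3.74 in the second comparison, and for TNFAIP2, at 1.76. The second comparison also differs in mtDNA and in the added enzymes, so these cannot be told apart from other differences of the cultures.

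Genes that sense foreign or misplaced nucleic acid were partly higher. Of 12 tested, 5 (41.7%) were higher and 2 lower in 143B rho+, and 2 were higher with the ACTB ratio as a covariate. In the second comparison 4 were higher and 4 lower, with a median of -0.26 against 0.58 in the first. IFI16, a nuclear DNA sensor, was at 2474, 2857 and 3201 in 143B rho+ and 87.6, 52.2 and 25.7 in DN-POLG day 0 (5.85, adjusted p = 2.11e-05). RIGI, the RNA helicase sensor, was at 1347, 1529 and 1274 against 119, 111 and 128 (3.53). CGAS, the cytosolic DNA sensor, was higher by 3.16, but the difference was -1.10 with the ACTB ratio as a covariate (adjusted p = 0.438). The kinase TBK1 (-1.48) and the factor IRF1 (-1.07) were lower. Interferon-stimulated genes went both ways, with 5 of 17 higher, 5 lower (29.4% each) and a median of 0.12 that turned to -0.38 with the arrays set to one median. Over all genes 26.7% were higher and 35.2% lower. Without replicate 1 or replicate 2 of 143B rho+, 3 of the 17 were higher. In the second comparison 3 of the 17 were higher and 9 lower, with a median of -0.68. SAMD9 (4.66) and IFIT2 (3.54) were higher, and USP18 (-3.11) and HERC5 (-2.43) lower. Of 18 antigen presentation genes, 7 (38.9%) were higher and 5 (27.8%) lower. With any single array left out 2 or 3 were lower, and with the methods' ANOVA 1. The peptide-trimming protease ERAP1 was higher by 4.03, a call lost without probe sets ending in _s_at or _x_at.

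Transcripts of mtDNA were present in both lines, and 1 of them passed the test. The array names 7 with a probe set above the filter, and the other 6 did not pass. COX1, a core subunit of complex IV, was at 32355, 28556 and 29654 in 143B rho+ and 43102, 59651 and 42739 in DN-POLG day 0 (-0.67, adjusted p = 0.0518). With the arrays set to one median it was lower (-1.17, adjusted p = 0.00620). COX2 was at 32704, 33484 and 33076 against 36646, 57936 and 39734 (-0.41, adjusted p = 0.223). ND4 was at 34561, 29950.3 and 30927 against 20452, 21115 and 21907 (0.59, adjusted p = 0.0601), and ND2 differed by 0.60 (adjusted p = 0.0832), both of which passed as higher after quantile normalization. In both lines these signals lay far above the median signal of the arrays, and those of COX1, COX2 and ND4 did not overlap between the lines. ATP6 differed by 0.19, and by 0.90 after quantile normalization (adjusted p = 0.0192), and COX3 by 1.32, with signals of 4458, 3057 and 3306 in 143B rho+ and 2666, 373 and 2936 in DN-POLG day 0.

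ND6, the 1 protein gene of mtDNA that is read from the opposite strand, was the transcript that passed. Its signal was 28350.1, 27536 and 26545 in 143B rho+ and 4981, 1589.8 and 3313 in DN-POLG day 0, and the groups did not overlap. The difference was 3.21 (SE 0.41, adjusted p = 2.46e-04 from limma), and 1.13 with the ACTB ratio as a covariate (adjusted p = 0.175), the 1 alternative that lost the call. Strand-specific reading of the mtDNA region was not tested. Over the 7 transcripts the median difference was 0.59, and 0.08 with the arrays set to one median, where 1 was higher and 2 were lower. After quantile normalization it was 1.22, and 4 were higher and 0 lower. It was -0.77 with the ACTB ratio as a covariate, where none of the 7 passed. In 143B rho0, which lacks mtDNA, 7 of 7 were lower than in NDI1/AOX day 0.

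Nuclear genes for the respiratory chain were lower in 143B rho+ for most genes tested. Of 33 tested complex I genes, 28 (84.8%) were lower and 0 higher, with a median of -1.93 against -0.20 for all genes. NDUFS7, a core subunit next to the quinone site, was at 121, 39.0 and 42.8 in 143B rho+ and 2824, 4978 and 2329 in DN-POLG day 0 (-5.77, SE 0.49, adjusted p = 3.74e-05 from limma). NDUFA7 was at 299, 429.7 and 244 against 8089.9, 11239 and 7632 (-4.81), and NDUFB7 and NDUFA13, accessory subunits, differed by -4.51 and -4.36. The genes that did not pass were NDUFA9 (-0.23), NDUFB3 (-0.43), NDUFB5 (0.23), NDUFB9 (-0.17) and NDUFV2 (-0.31). The second comparison had 25 lower and 1 higher, with a median of -1.29. With the ACTB ratio as a covariate 26 were lower. Without probe sets ending in _s_at or _x_at, which can match several transcripts, 23 of the genes were left, of which 14 were lower and 3 higher with a median of -1.26.

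Of 22 tested genes of complexes II to IV, 17 (77.3%) were lower and 2 higher, with a median of -1.35. UQCR10, a small subunit of complex III, was at 699.6, 677 and 736 in 143B rho+ and 14376, 20412 and 17086 in DN-POLG day 0 (-4.60, adjusted p = 7.86e-06). CYC1, cytochrome c1, was at 937, 531 and 467 against 10562, 18214 and 9166 (-4.30), the core protein UQCRC1 differed by -3.90, and COX8A of complex IV by -3.68. The 2 that were higher, named after their values were seen, were SDHC of complex II at 0.82 and COX7A2L, a factor of supercomplex assembly, at 0.81. Neither passed with the arrays set to one median. COX4I1, a main regulatory subunit of complex IV, did not pass (-0.17, adjusted p = 0.564).

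Of 15 tested genes of complex V, 12 (80.0%) were lower and 1 higher, with a median of -1.60. ATP5MC2, a gene for the membrane ring, was at 1362, 899 and 547 in 143B rho+ and 14513, 17725 and 15917 in DN-POLG day 0 (-4.19, adjusted p = 3.84e-05). ATP5F1B, the catalytic beta subunit, was at 5028, 4375 and 3574 against 18972, 30631 and 22858 (-2.47), and ATP5F1D and ATP5PD differed by -3.62 and -2.84. The gene that was higher was ATP5IF1, the inhibitor of the enzyme, at 12399, 14629 and 14256 against 3395, 1496 and 3688 (2.37, adjusted p = 7.57e-04). For complex V the probe sets mattered: without those ending in _s_at or _x_at, 9 genes were left, 3 lower and 2 higher, and the call for ATP5PD was lost (adjusted p = 0.185).

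Of 72 tested mitochondrial ribosomal proteins, 56 (77.8%) were lower and 1 higher, with a median of -1.45. With the ACTB ratio as a covariate 42 were lower and 2 higher, with a median of -1.22. Without probe sets ending in _s_at or _x_at 27 of 40 were lower and 2 higher, with a median of -1.16. MRPS12 was at 101, 52.0 and 12.9 in 143B rho+ and 5500.1, 9853 and 9896 in DN-POLG day 0 (-7.64), though probe sets of this gene were called in both directions. MRPL12 (-5.35), MRPL23 (-5.11) and MRPL34 (-4.72) followed. MRPL12 was lost without probe sets ending in _s_at or _x_at (adjusted p = 0.0981). MRPL44 was the gene that was higher, at 2723, 2397 and 2275 against 678, 206 and 606 (2.48, adjusted p = 0.00152).

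**Figure D4:**
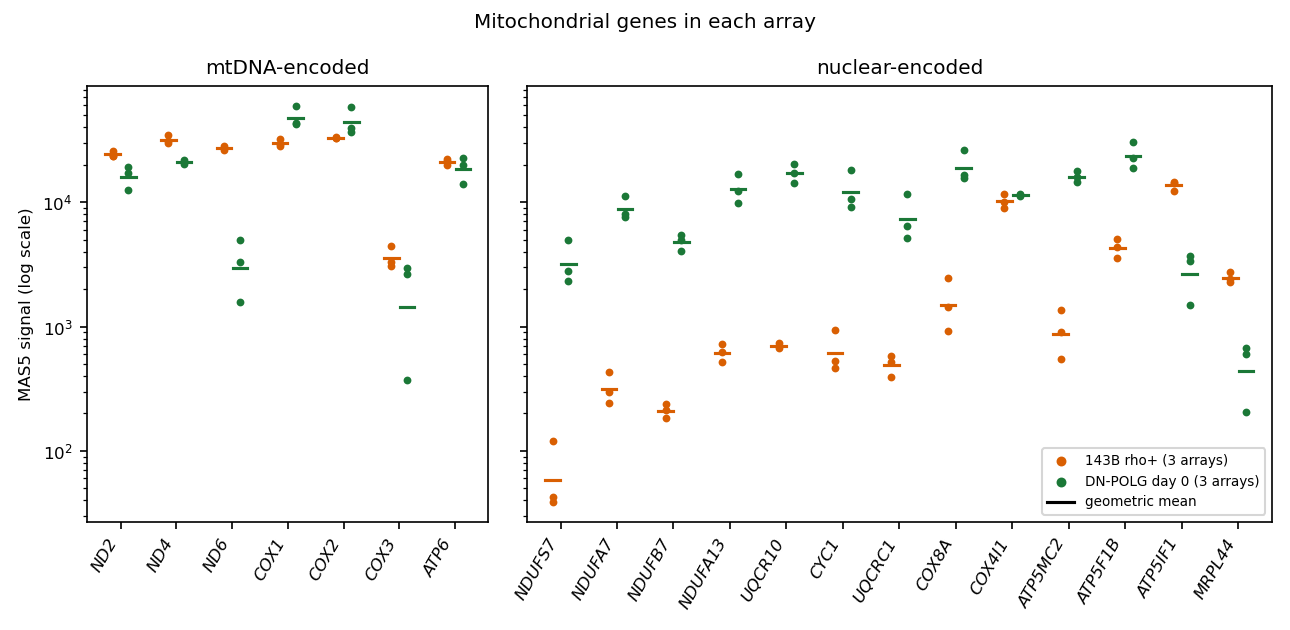
MAS5 signal (log axis) of 7 mtDNA-encoded and 13 nuclear-encoded mitochondrial genes in each of the 3 arrays of 143B rho+ and of DN-POLG day 0; points are arrays and bars are geometric means. Of the mtDNA-encoded genes ND6 alone passed, while the nuclear genes shown, which were taken from both ends of their lists, lie lower in 143B except COX4I1, ATP5IF1 and MRPL44.

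The factors that copy and transcribe mtDNA were split. Of 29 tested, 11 (37.9%) were lower and 6 (20.7%) higher, near the shares of all genes. TFAM, which packages mtDNA and starts its transcription, was at 4834, 4215 and 5187 in 143B rho+ and 4124, 2992 and 5464 in DN-POLG day 0 (0.22, adjusted p = 0.547). The mitochondrial RNA polymerase POLRMT (-0.13, adjusted p = 0.728) and the helicase TWNK (-0.37, adjusted p = 0.305) did not pass either. LONP1, the matrix protease, was lower at 334, 326 and 259.8 against 2526, 2234 and 1770.2 (-2.82). SLIRP, an RNA-stabilising partner of LRPPRC, was lower at -2.64, and TEFM, the elongation factor, by -1.96 (adjusted p = 0.0825 with the ACTB ratio as a covariate and 0.0870 for the mean of its probe sets). MTERF1, a termination factor, was higher by 2.25.

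Ribosomal proteins of the cytosol and proteasome subunits were lower too. Of 54 cytosolic ribosomal proteins taken by symbol after the data were seen, 44 were lower and 2 higher, with a median of -1.18, and of 32 proteasome subunits 24 were lower and 3 higher, with a median of -1.37. Many ribosomal protein genes have processed copies that their probe sets may also detect. Over all genes with a length in RefSeq (99.9%), sorted into 5 classes by the length of the gene, the median difference was -0.60, -0.41, -0.27, -0.09 and 0.25 from the shortest to the longest class. In the second comparison the medians ran from -0.59 to -0.13. The median gene length was 12.6 kb for complex I and 89.0 kb for the matrix list. Lists of short genes differed in direction. That of complex V had a median length of 8.11 kb and a median difference of -1.60, and that of mitochondrial ribosomal proteins 9.17 kb and -1.45. The cytokine list had a median length of 8.42 kb and a median difference of 2.81, and the MAPK output list 8.50 kb and 1.64. The part of gene length in the list differences was not tested. That of the 3' to 5' ratios was not tested beyond the model with the ACTB ratio as a covariate.

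Promoter sequence was set beside these groups because they moved together. NRF1, a nuclear factor known for respiratory genes, binds a motif whose core is GCGC, any 2 bases and again GCGC. In the 250 bases before the start of the gene this core, on either strand, was found in 7.58% of 27305 promoters and in 14.7% of 9456 promoters of tested genes, with 16.9% among genes lower in 143B and 12.8% among genes higher. It was found in 6 of 31 complex I promoters, 4 of 18 for complexes II to IV and 3 of 12 for complex V, and in 9 of 64 (14.1%) for mitochondrial ribosomal proteins, near the share of tested genes. AP-1 is the dimer of Fos and Jun proteins. Its motif TGANTCA, where N is any base, was found in 3.54% of the promoters of tested genes, in 4.51% among genes higher and 3.11% among genes lower. It was found in 1 of 28 promoters of the matrix list, 1 of 18 of the integrin list, 2 of 15 of the cytokine list and 0 of 16 of the MAPK output list.

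Of the matrix, integrin and cytokine genes and of the respiratory chain genes with a match, some are shown by their promoter (RefSeq, GRCh38.p14, 5′ to 3′ on the strand of the gene). They had the widest differences called the same way in both comparisons once the genes of a chromosome that was set aside were left out. Capitals mark the motif, the AP-1 motif for the genes higher in 143B, PLAUR and IL11, and the NRF1 core for the genes lower, UQCRC1, NDUFB10 and NDUFA11.
IL11, minus strand, chr19:55370464-55370713: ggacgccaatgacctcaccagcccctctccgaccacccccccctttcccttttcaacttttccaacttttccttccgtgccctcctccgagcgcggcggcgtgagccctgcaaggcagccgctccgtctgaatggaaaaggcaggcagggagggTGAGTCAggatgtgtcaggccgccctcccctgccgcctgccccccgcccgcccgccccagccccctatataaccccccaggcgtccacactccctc
PLAUR, minus strand, chr19:43670170-43670419: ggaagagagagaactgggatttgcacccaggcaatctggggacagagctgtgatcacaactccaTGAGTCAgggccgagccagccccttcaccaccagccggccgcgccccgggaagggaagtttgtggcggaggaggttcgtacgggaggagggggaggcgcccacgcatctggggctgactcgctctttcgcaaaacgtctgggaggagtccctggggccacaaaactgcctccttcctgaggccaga
UQCRC1, minus strand, chr3:48609647-48609896: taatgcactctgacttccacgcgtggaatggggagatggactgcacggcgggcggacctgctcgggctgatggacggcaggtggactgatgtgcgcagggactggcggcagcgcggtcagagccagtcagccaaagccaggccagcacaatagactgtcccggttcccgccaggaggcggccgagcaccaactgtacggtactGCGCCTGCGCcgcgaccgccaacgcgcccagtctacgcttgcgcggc
NDUFB10, plus strand, chr16:1959288-1959537: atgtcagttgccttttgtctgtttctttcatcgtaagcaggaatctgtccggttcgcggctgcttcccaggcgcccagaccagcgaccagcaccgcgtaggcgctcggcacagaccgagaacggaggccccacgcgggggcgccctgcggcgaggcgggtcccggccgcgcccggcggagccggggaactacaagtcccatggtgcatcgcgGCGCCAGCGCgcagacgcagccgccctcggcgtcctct
NDUFA11, minus strand, chr19:5903791-5904040: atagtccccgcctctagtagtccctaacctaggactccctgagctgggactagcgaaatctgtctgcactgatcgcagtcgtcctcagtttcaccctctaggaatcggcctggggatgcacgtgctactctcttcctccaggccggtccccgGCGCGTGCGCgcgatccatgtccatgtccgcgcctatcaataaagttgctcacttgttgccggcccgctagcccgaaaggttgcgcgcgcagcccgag

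IL11, a cytokine of bone and stroma, had signals of 936, 1403 and 802 in 143B rho+ and 107, 119 and 7.45 in DN-POLG day 0 (4.48, adjusted p = 0.00347). PLAUR, the urokinase receptor, was at 7880.2, 8154 and 6157 against 529, 589.6 and 472 (3.80). The accessory complex I subunits NDUFB10 and NDUFA11 were lower at -3.89 and -3.53. In IL11 the motif begins 96 bases before the start of the gene and in PLAUR 186. For the lower genes it begins 47 bases before the start in UQCRC1, 38 in NDUFB10 and 98 in NDUFA11. A match says only that these letters stand in the window.

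Enzymes of the tricarboxylic acid (TCA) cycle and of pyruvate entry were mostly lower, with single strong exceptions. Of 19 TCA cycle genes, 11 (57.9%) were lower and 1 higher, with a median of -1.07, and 7 were lower with the ACTB ratio as a covariate. IDH3B, a subunit of the NAD-linked isocitrate dehydrogenase, was at 1579, 973 and 986 in 143B rho+ and 5743, 9261 and 5887 in DN-POLG day 0 (-2.56, adjusted p = 2.35e-04). DLD, the shared E3 subunit of the oxoacid dehydrogenases, and ME2, mitochondrial malic enzyme, were lower at -2.43 and -2.32, but both were lost with that covariate (adjusted p = 0.0603 and 0.0770). CS, citrate synthase, did not pass (0.06, adjusted p = 0.850). PCK2, the mitochondrial carboxykinase that turns oxaloacetate into phosphoenolpyruvate, was the gene that was higher, at 6210.4, 10688 and 7068 against 536, 285 and 350.1 (4.37, adjusted p = 2.67e-05).

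Of 26 genes of pyruvate entry and fatty acid oxidation, 16 were lower and 3 higher, with 8 lower under the covariate. PDK3, a kinase that shuts pyruvate dehydrogenase, was lower at 255, 382 and 287 against 3028, 1756 and 3490.4 (-3.12), while PDP1, the phosphatase that opens it, was higher by 2.55. CPT1A, the carnitine transferase that admits long-chain fatty acids, was higher by 2.68, and its neuronal relative CPT1C was lower at -2.29. HADHA, of the trifunctional protein of fatty acid oxidation, was the third that was higher (0.77). Of 23 genes of mitochondrial dynamics and mitophagy, 14 (60.9%) were lower and 0 higher, and 5 of 14 were lower without probe sets ending in _s_at or _x_at. FIS1, a fission adaptor, was at 259.9, 195 and 138 in 143B rho+ and 4529.7, 6971 and 6000.5 in DN-POLG day 0 (-4.91). The mitophagy receptor FUNDC1 (-3.21), the matrix protease CLPP (-3.13) and the import motor subunit TIMM44 (-2.88) were lower as well.

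Glucose transporters were higher in 143B rho+, and the direction for the enzymes of glycolysis was not settled. Of 26 tested genes of this pathway, 15 (57.7%) were lower and 6 (23.1%) higher. SLC2A1, the GLUT1 transporter, was at 6304, 4339 and 3034 in 143B rho+ and 374, 347 and 543 in DN-POLG day 0 (3.40, adjusted p = 8.20e-05), and SLC2A3, GLUT3, was higher by 3.71. PGD, of the pentose phosphate branch, was lower at 1073, 566 and 519 against 5023, 6408 and 9151 (-3.29). ENO1, enolase, was lower at -3.15 on its brightest probe set, but its probe sets were called in both directions and it was higher by 2.08 without those ending in _s_at or _x_at. Under that setting 5 of 15 glycolysis genes were higher and 5 lower, so no direction of the pathway is given. Of 18 hypoxia-responsive genes 8 were higher and 2 lower, 5 and 4 with the arrays set to one median. In the second comparison 4 were higher and 4 lower, with a median of -0.09 against 0.88 in the first. EPAS1, HIF-2 alpha, was higher at 2363, 1929.8 and 3108 against 172, 240.3 and 249 (3.48), P4HA1, a collagen prolyl hydroxylase, by 2.70, and STC2 by 2.02, while the demethylase KDM3A (-1.98) and the oxygen sensor EGLN3 (-1.78) were lower. STC2 and KDM3A were lost with the ACTB ratio as a covariate (adjusted p = 0.188 and 0.166).

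Genes of one-carbon metabolism went in both directions. Of 20 serine, glycine and folate genes, 9 (45.0%) were higher and 4 lower, with 4 higher under the covariate. ALDH1L2, which oxidises formyl-tetrahydrofolate in mitochondria, was at 994, 1847 and 2195 in 143B rho+ and 15.2, 40.0 and 19.4 in DN-POLG day 0 (6.13, adjusted p = 1.99e-05). SLC1A4, a neutral amino acid transporter, was higher by 4.52, and FOLR1, a folate receptor, by 4.58 (lost under the covariate, adjusted p = 0.291). MTHFD1, the cytosolic trifunctional folate enzyme, was lower at 2056, 1489.8 and 2377 against 10222, 9947 and 11048 (-2.42). Of 29 methionine, transsulfuration and polyamine genes, 12 (41.4%) were lower and 5 (17.2%) higher, against 35.2% and 26.7% of all genes. Without replicate 1 or replicate 2 of 143B rho+ 3 were higher. With the ACTB ratio as a covariate 9 were lower and 4 higher. Without probe sets ending in _s_at or _x_at 6 of 19 were lower and 7 higher. NNMT, which methylates nicotinamide with S-adenosylmethionine, was at 2562, 2294 and 3873 in 143B rho+ and 37.4, 33.1 and 22.4 in DN-POLG day 0 (6.55, adjusted p = 5.92e-06). SRM, spermidine synthase, was lower at -3.40, and ASS1, which makes argininosuccinate, by -3.11. SAT1, the acetyltransferase that drives polyamine breakdown, did not pass (-0.55, adjusted p = 0.128) and was 0.13 after quantile normalization. It passed as lower with the arrays set to one median (-1.05, adjusted p = 0.0101), with the mean of probe sets (-2.12), with the probe set of the lowest p (-4.33), with array weights (-0.82), with the ACTB ratio as a covariate (-1.41) and with NDI1/AOX day 0 as the HEK293 group (-0.72).

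Of 27 genes of nucleotide synthesis and salvage, 15 (55.6%) were lower and 4 higher, 2 without replicate 1 of DN-POLG day 0 or without any array of 143B rho+. Beside TK1, the uridine-cytidine kinase UCK1 was at 30.6, 45.3 and 61.2 in 143B rho+ and 2264, 2691 and 1666 in DN-POLG day 0 (-5.62, adjusted p = 1.08e-05), and CTPS1, CTP synthase, was lower at -2.62. Of 20 genes of NAD synthesis and NADH shuttles, 12 (60%) were lower and 3 higher, with 7 lower under the covariate. PARP1, a main consumer of nuclear NAD, was at 504, 441 and 633 against 8475, 9710 and 9538 (-4.15). QPRT, of NAD synthesis from tryptophan, was at 70.1, 86.2 and 171 against 903, 1560.4 and 841 (-3.39), while the deacetylase SIRT1 and the NAD kinase NADK were lower (-2.45 and -2.45). The 3 that were higher were NMNAT2 (1.17), the mitochondrial NAD kinase NADK2 (1.51) and the aspartate-glutamate carrier SLC25A12 (2.11). Cholesterol synthesis had 8 of 22 higher and 8 lower, 36.4% each, against 26.7% and 35.2% of all genes. PMVK (-3.60), MVK (-2.85), TM7SF2 (-2.52) and FDPS (-1.96) were its named genes and were lower, TM7SF2 with adjusted p = 0.0558 in the methods' ANOVA. Without probe sets ending in _s_at or _x_at 8 of 14 were higher and 3 lower, and the median turned from -0.25 to 1.18.

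Antioxidant enzymes differed widely in both directions. Of 22 NRF2 targets and antioxidant genes, 11 (50%) were lower and 6 (27.3%) higher, against 35.2% and 26.7% of all genes. The median was -0.83. With the ACTB ratio as a covariate 7 were lower and 6 higher, and the median was -0.33. PRDX2, a peroxiredoxin, was at 509, 509 and 519 in 143B rho+ and 16403, 16843 and 18779 in DN-POLG day 0 (-5.08, SE 0.24, adjusted p = 5.49e-06 from limma). The glutathione peroxidases GPX1 (-4.54) and GPX4 (-4.50) were lower, whereas GSTM2, a glutathione transferase, was higher at 1775, 1814 and 1362 against 87.0, 55.8 and 79.9 (4.49). Of 22 ATF4 targets, 7 (31.8%) were higher and 6 (27.3%) lower, against 26.7% and 35.2% of all genes. ATF4 itself, the factor of the integrated stress response, was lower at 7383, 6386 and 5642 against 21089, 32343 and 17809.5 (-1.84, adjusted p = 9.66e-04). GDF15, a secreted stress factor, was lower at 102, 104 and 37.1 against 630.3, 1164 and 792 (-3.51), as was SLC3A2 (-3.12), while DDIT4 (2.91) and CHAC1 (2.48) were higher, CHAC1 with adjusted p = 0.660 under the covariate. MFSD2A, a lipid transporter, was lower at -1.31 (adjusted p = 0.0114, 0.0513 in the methods' ANOVA). PPARA, a factor of fatty acid oxidation, did not pass (0.03). FGF21 and BHMT were under the signal filter.

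Enzymes that write and remove DNA methylation differed by member rather than as a group. Of 17 tested, 6 were lower and 4 higher, near the shares of all genes, and without probe sets ending in _s_at or _x_at 6 of 13 were higher and 3 lower. DNMT1, the maintenance methyltransferase, was at 1048, 994 and 1275 in 143B rho+ and 8719, 11008 and 4930.1 in DN-POLG day 0 (-2.83, adjusted p = 1.96e-04). Of the de novo enzymes, DNMT3B was lower at -2.44, and DNMT3A was higher by 2.30 (adjusted p = 0.0505 under the covariate). TET1, a demethylase, was lower at -2.31.

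Most proliferation genes were lower in 143B rho+. Of 31 tested proliferation genes, 23 (74.2%) were lower and 1, AURKA (0.73), was higher, with a median of -1.89. AURKB, the kinase of the chromosomal passenger complex, was at 697, 378 and 345 in 143B rho+ and 4478, 8626 and 3608 in DN-POLG day 0 (-3.53, adjusted p = 1.69e-04). MCM5, of the replicative helicase, was at 235, 169 and 289 against 1823, 2622 and 3128 (-3.45), the checkpoint kinase TTK was lower at -2.84 and the kinesin KIF20A by -2.70. MYC was at 774, 971 and 367 in 143B rho+ and 1106, 631 and 4972 in DN-POLG day 0, and these overlapping groups did not pass (-1.22, adjusted p = 0.169). It passed with the arrays set to one median (-1.72, adjusted p = 0.0403) and without replicate 2 of DN-POLG day 0 (adjusted p = 0.0391). Growth rate was not measured in these files, and in bulk RNA fewer cells of a kind and less RNA per cell cannot be told apart. Of 18 genes of the p53 pathway, cyclins and cell cycle inhibitors, 7 (38.9%) were lower and 3 (16.7%) higher, against 35.2% and 26.7% of all genes. SESN1, a sestrin, was lower at -3.17, CCNE1, cyclin E1, by -2.29, and CCND1, cyclin D1, was higher at 5086, 3772 and 5325 against 573, 641 and 559.8 (2.99, adjusted p = 0.199 under the covariate).

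**Figure D5:**
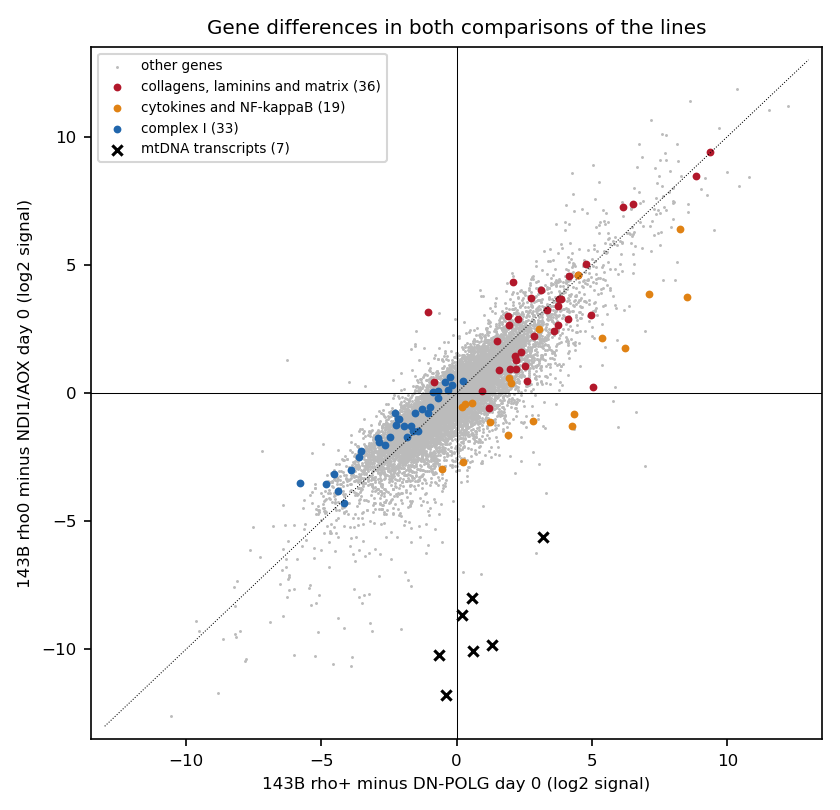
Difference of each of 11492 genes between 143B rho+ and DN-POLG day 0 (x axis) and between 143B rho0 and NDI1/AOX day 0 (y axis), both log2 signal; points are genes, 4 lists are marked, and the dotted line is equality. The 7 mtDNA transcripts lie far below 0 on the y axis, where the 143B cells lack mtDNA, and part of the 19 cytokine genes lies below the line, while matrix genes have like medians on both axes, 2.81 and 2.90.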

How the data were processed

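Total RNA of 24 cultures was amplified with a 3' IVT kit and hybridised to Affymetrix HG-U133 Plus 2.0 arrays, 1 colour and 1 culture per array. The values used were the deposited MAS5 signal intensities of 54675 probe sets, which the authors made with Affymetrix Expression Console and which are scaled to one trimmed mean on each array. No value was missing. MAS5 reports the brightness of perfect-match over mismatch probes, so low values are noisy, and the number of arrays limits the precision. The 6 arrays of 143B rho+ and DN-POLG day 0 were taken by their titles, with replicates as the labels number them, 3 independent cultures a group per the methods.

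Signals were put on the log2 scale with nothing added and tested with limma 3.58.1 in R 4.3.3 (lmFit and eBayes, two-sided, Benjamini-Hochberg, threshold 0.05), on the 6 arrays of the comparison. The second comparison was fitted alone on its own 6 arrays. Probe sets were tested where GEO's platform annotation gives 1 gene symbol and the mean log2 signal reached a cut. The cut was the median log2 signal of all probe sets, named or not, on the 6 arrays of the first comparison. Symbols were given for 41097 probe sets, of which 41043 matched RefSeq by Entrez ID, while 1801 had several symbols and 11777 were not named. A gene was taken by its brightest tested probe set, and 926 of 5963 genes with several tested probe sets (15.5%) had probe sets called in both directions. The study's methods used ANOVA, which was run on the same values as an alternative. Other alternatives were the scaling, the filter, a signal of 50 added before the log, the choice of probe sets, array weights, all 24 arrays in 1 model with and without the ACTB ratio as a covariate, the replicate number as a block and each array left out. Figures were drawn with matplotlib 3.10.9, permutation tests run with scipy 1.17.1, and the limma step was tested on simulated data.

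Named genes were the label checks, the 12 genes with the largest difference in each direction among those that passed and did not overlap in both comparisons, up to 4 passing genes of each list with the largest difference, and genes that the study names for expression. Other members were chosen after their values were seen, either because a count held 5 or fewer or because they did not pass. The members and gene lists were chosen with earlier results of these data known. Replicate numbers did not pair the cultures, and some genes are not analysed here.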

Additional observations from a re-analysis of the deposited data

Results flagged for a closer look

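The difference of 143B minus HEK293 was compared between the 2 comparisons by an interaction over their 12 arrays, an analysis chosen after the data were seen. It passed for 590 of 11492 genes and for 21 named genes, whose interactions (first minus second comparison, log2 scale, limma) follow. All 7 mtDNA transcripts were among them, with ND2 at 10.66, ND4 at 8.58, ND6 at 8.84, COX1 at 9.56, COX2 at 11.38, COX3 at 11.15 and ATP6 at 8.86, and the 143B cells of the second comparison lack mtDNA.

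Genes further above HEK293 in 143B rho+ than in 143B rho0 were ICAM1 (4.77, adjusted p = 0.00704), TNFAIP2 (4.48, adjusted p = 0.0296), TBX15 (3.16, adjusted p = 0.0211), CHAC1 (3.00, adjusted p = 0.0188) and IFI16 (2.43, adjusted p = 0.0341). PODXL (-1.88, adjusted p = 0.0280) was further above HEK293 in 143B rho0. Among genes that were lower in 143B rho+, QPRT (-3.66, adjusted p = 0.00447), LMNA (-2.16, adjusted p = 0.0341), KIF20A (-2.03, adjusted p = 0.0219), SRM (-1.72, adjusted p = 0.0346) and PARP1 (-1.55, adjusted p = 0.0214) were less far or not below in 143B rho0, and BEX1 (2.89, adjusted p = 0.0211) and PKP2 (2.02, adjusted p = 0.00513) were further below. The direction of LMNA in 143B rho+ is not settled, since it was higher without probe sets ending in _s_at or _x_at. SAT1 (1.57, adjusted p = 0.0419) did not pass in the first comparison, where its difference was -0.55. Loss of mtDNA, the added NDI1 and AOX, and the arrays of each group cannot be told apart in this difference. Groups of 3 arrays were not tested for single outlying arrays.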

How the results depend on the processing

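With a filter at the 75th percentile 1931 genes were higher in 143B rho+, and in the second comparison 1938 were higher, 3172 lower and 5110 called in all, where fewer genes were tested. Leaving out 1 array gave 2600 to 3149 higher, 3510 to 4112 lower and 6110 to 7092 called genes, and 2426 to 3554, 4047 to 5644 and 6488 to 9198 in the second comparison. The difference of the log2 3' to 5' ratio then ran from 3.30 to 3.66 for ACTB and from 1.00 to 1.37 for GAPDH. With the arrays set to one median 2093 genes were higher and 5317 lower, with quantile normalization 2866 and 4390, with the methods' ANOVA 2567 and 3585, and with the ACTB ratio as a covariate 2132 and 3238. With NDI1/AOX day 0 as the HEK293 group, chosen after the data were seen, they were 3639 and 5009.

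Same-numbered replicates did not deviate together (correlations of -0.06, 0.03 and 0.12), and with the replicate number as a block 3021 genes were higher and 3902 lower, and 2698 and 4469 in the second comparison.

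Of 167 named genes that passed, 33 lost the call under 1 alternative or more, and of 3593 values 25 changed sign. With quantile normalization the sign changed for COX2 (0.29), PPARA (-0.36) and SAT1 (0.13), and with the arrays set to one median for ATP6 (-0.32), POLG (-0.21) and PPARA (-0.47). Without probe sets ending in _s_at or _x_at it changed for ATP6 (-0.88), ENO1 (2.08), LMNA (3.02) and TLN1 (-0.21), with the mean of probe sets for ATP6 (-0.35) and with the probe set of the lowest p for ATP6 (-0.88). With the ACTB ratio as a covariate it changed for ATP6 (-1.01), CGAS (-1.10), COX3 (-0.77), HMGA1 (-0.66), ND2 (-0.13), ND4 (-0.38) and POLG (-0.82), and with NDI1/AOX day 0 as the HEK293 group for PPARA (-0.0727). Leaving out 1 array gave -0.0118 to 0.34 for ATP6, -0.0237 to 0.48 for POLG and -0.12 to 0.24 for PPARA. The cause was not tested.

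The main limits are the groups of 3 cultures of 1 line, the scaling, which moved the median of all genes from -0.20 to -0.71, and the 3' to 5' ratios of ACTB, GAPDH, Dap and Lys, which did not overlap between these 6 arrays. For ACTB and GAPDH the ratios did not overlap between the lines in the second comparison either. Of 7114 called genes, 1039 had a low group under the filter, where the size of a difference is uncertain.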
